A study of Mus musculus with 24 samples.

Results

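Open chromatin of hair follicle stem cell progeny in a partial-thickness wound at day 7 was set beside that of epidermal stem cells of unwounded skin at day 0. The peaks of both deposited lists were merged into 42809 regions on the mm10 build, of the 63188 regions that all 8 lists of the study give. Each region was classed by an overlap of at least 1 bp as held by the day 7 wound list alone, by the day 0 epidermis list alone or by both (shared). The study profiled 24 samples in 8 groups by ATAC-seq, in which a transposase inserts sequencing adapters into accessible DNA. Skin was treated with trypsin and cells were sorted by FACS, with gates that the labels do not state. The wound group has 2 samples, labelled as wound-responsive progeny of hair follicle stem cells after a partial-thickness wound. The unwounded group has 4 samples, labelled as epidermal stem cells. All of these mice carried Krt19-CreER and R26-YFP on a CD1 x C57BL/6J cross. In this system a tamoxifen-inducible Cre recombinase, driven from Krt19, turns on a yellow fluorescent reporter, and the labels do not say which cells carried the reporter at the time of the sort. The 6 other lists come from unwounded hair follicle stem cells (HFSC, 4 samples), the same wound at day 3 and day 80 (3 samples each), unwounded epidermal stem cells at day 80 (3 samples) and full-thickness wounds at day 7 (3 samples) and day 80 (2 samples). The full-thickness samples are labelled as progeny of epidermal stem cells, from Sox9-CreER and R26-YFP mice of the same cross, and all other samples carry Krt19-CreER and R26-YFP. The labels do not say whether samples of a group came from separate animals.

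Hair follicle stem cells rest in the bulge, the lowest permanent part of the follicle, and normally renew hair. Epidermal stem cells sit in the basal layer between the follicles and renew the skin barrier. When the surface of the skin is removed, cells of the follicle move up and rebuild the epidermis, so that a cell of follicle origin takes the place of an epidermal cell. The comparison asks how far the open chromatin of such cells differs from that of the epidermal cells whose place they take.

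The start sequences of 7 genes are shown, picked from the many starts at which only 1 of the lists had a peak. They are the 250 bases before an annotated start, from RefSeq on the GRCm38.p6 assembly (the assembly of mm10), written 5′ to 3′ on the strand of the gene. The start windows of the first 5, which also take in 50 bases after the start, were overlapped by a peak of the day 7 wound list and by none of the day 0 epidermis list. They belong to Plaur, the urokinase receptor, Il6, a cytokine, Ivl and Sprr1b, which encode proteins of the cornified envelope, and Krt5, a keratin of basal cells. The Il6 and Krt5 windows were overlapped by all 6 other lists too. Those of the last 2 were overlapped by the day 0 epidermis list and not by the day 7 wound list. They belong to Bmp4, a secreted growth factor, and Pkib, an inhibitor of cAMP-dependent protein kinase. Capitals mark TGANTCA, the core of the AP-1 site, in the first 5. In the last 2 they mark AGATAA, bound by GATA factors, and both motifs were read on either strand.
Plaur (chr7:24462233-24462482, plus strand): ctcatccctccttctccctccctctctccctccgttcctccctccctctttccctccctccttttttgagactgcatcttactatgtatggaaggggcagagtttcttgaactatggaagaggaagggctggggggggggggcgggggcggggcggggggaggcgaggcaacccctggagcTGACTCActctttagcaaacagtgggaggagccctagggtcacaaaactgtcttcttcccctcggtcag
Il6 (chr5:30012864-30013113, plus strand): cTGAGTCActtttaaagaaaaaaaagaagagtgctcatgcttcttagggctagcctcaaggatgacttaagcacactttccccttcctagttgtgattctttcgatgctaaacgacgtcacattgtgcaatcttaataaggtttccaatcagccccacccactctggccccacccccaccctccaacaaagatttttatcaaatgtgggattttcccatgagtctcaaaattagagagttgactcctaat
Ivl (chr3:92573736-92573985, minus strand): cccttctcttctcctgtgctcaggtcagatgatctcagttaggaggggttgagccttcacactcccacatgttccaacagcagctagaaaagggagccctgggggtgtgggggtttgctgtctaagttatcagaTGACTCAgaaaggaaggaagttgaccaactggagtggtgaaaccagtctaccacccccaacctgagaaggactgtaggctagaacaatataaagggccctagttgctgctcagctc
Sprr1b (chr3:92438780-92439029, minus strand): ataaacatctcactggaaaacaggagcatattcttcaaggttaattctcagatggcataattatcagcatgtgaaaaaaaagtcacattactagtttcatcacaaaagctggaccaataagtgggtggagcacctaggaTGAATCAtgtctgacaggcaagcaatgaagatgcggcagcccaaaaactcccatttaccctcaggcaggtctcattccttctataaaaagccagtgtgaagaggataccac
Krt5 (chr15:101712906-101713155, minus strand): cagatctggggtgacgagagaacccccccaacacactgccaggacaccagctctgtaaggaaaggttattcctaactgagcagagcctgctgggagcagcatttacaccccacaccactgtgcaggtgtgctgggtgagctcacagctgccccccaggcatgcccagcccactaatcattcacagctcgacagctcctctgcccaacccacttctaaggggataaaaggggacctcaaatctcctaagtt
Bmp4 (chr14:46390670-46390919, minus strand): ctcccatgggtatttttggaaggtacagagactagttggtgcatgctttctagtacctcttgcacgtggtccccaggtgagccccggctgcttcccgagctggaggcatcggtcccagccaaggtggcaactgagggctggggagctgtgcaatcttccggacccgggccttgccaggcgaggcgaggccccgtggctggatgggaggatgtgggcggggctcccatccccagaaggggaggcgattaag
Pkib (chr10:57631731-57631980, plus strand): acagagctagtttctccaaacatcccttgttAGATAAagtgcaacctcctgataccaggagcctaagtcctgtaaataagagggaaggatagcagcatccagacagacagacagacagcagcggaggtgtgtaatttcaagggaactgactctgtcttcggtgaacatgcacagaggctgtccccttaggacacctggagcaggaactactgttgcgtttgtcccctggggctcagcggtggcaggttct
The AP-1 core began 69 bases before the start in Plaur, 249 in Il6, 116 in Ivl and 111 in Sprr1b, and the Krt5 window had no match. The GATA core began 219 bases before the Pkib start, and the Bmp4 window had no match. These matches describe the letters and do not show that a factor was bound. The 7 starts do not stand for all starts held by 1 list. TGANTCA was in 6.99% of all start windows. Among those held by 1 list it was in 7.76% (day 7 wound) and 6.81% (day 0 epidermis). AGATAA was in 9.65%, 6.90% and 8.22% in the same order. The window of Rsad2, held by the day 0 epidermis list only, had an AP-1 core too.

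Only 1 peak list was deposited for a group, which leaves no replicate error and allows no test. Intervals beside shares are exact Clopper-Pearson 95% intervals and take in counting error alone. Read depth is unknown. The day 7 wound list held 35430 peaks with a median width of 878 bp, and the day 0 epidermis list held 30974 peaks with a median width of 737 bp. The weakest deposited peak had a −log10 p of 40.2 in the first list and 13.5 in the second, and gaps in the peak numbering leave 34.4% and 65.1% of the numbered calls. The basal keratinocyte genes Krt14, Itga6, Itgb4 and Trp63 had 2, 6, 1 and 2 regions in the day 0 epidermis list and Krt5 had 0. Of 21 genes that mark hair follicle stem cells, 20 had a region, and 10 had more regions in the day 7 wound list, 4 more in the day 0 epidermis list and 6 equal numbers. Over all 13609 genes with a region these shares were 35.6%, 17.8% and 46.7%. Peak names in the day 0 epidermis list carry the tag Ctrl_D7, which matches no group of the labels, and this could not be settled. Values with the epidermis list of day 80 in place of that of day 0 are therefore printed beside the leading results.

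Most regions were shared. Both lists held 23369 regions (54.6%), the day 7 wound list alone held 11973 (28%, interval 27.5 to 28.4) and the day 0 epidermis list alone held 7467 (17.4%, interval 17.1 to 17.8). Regions of 1 list alone were the weaker ones of their list. In the day 7 wound list the median score, which in these files is 10 times the −log10 q of the peak, was 532 for regions in that list alone and 929 for shared regions. In the day 0 epidermis list the medians were 176 and 322. In the weakest decile of the day 7 wound list 69.0% of regions were in that list alone, and in the strongest decile 1.10%. In the day 0 epidermis list the same shares were 51.4% and 2.43%. Among regions in 1 list alone, 61.6% belonged to the day 7 wound list. That excess was gone when both lists were reduced to the 30974 strongest peaks, with 8959 regions in the day 7 wound list alone and 8882 in the day 0 epidermis list alone, a share of 50.2%. With the day 80 epidermis list in place of that of day 0, the counts were 11970 and 8734.

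**Figure D1:**
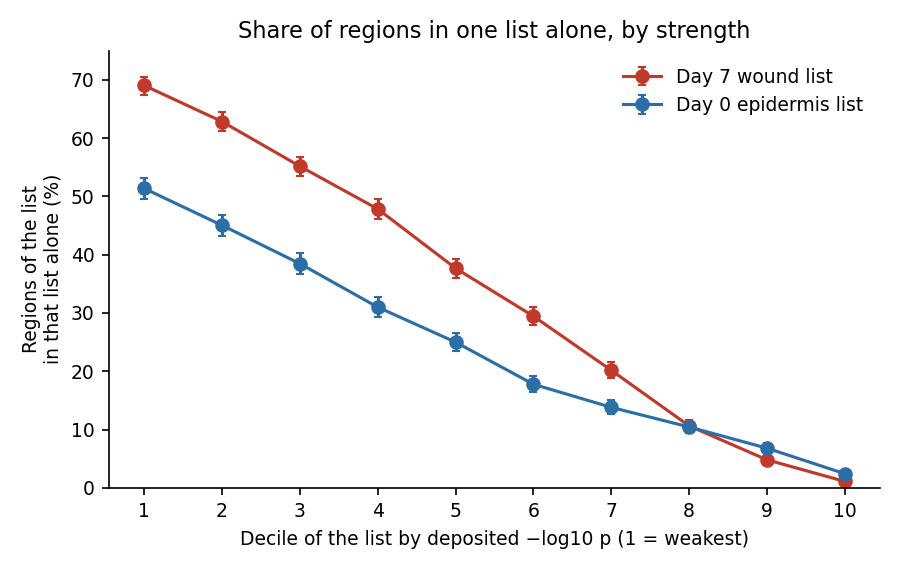
Share of the regions of each list that were in that list alone (y axis, %), by decile of the list's deposited −log10 p (x axis, 1 weakest, 10 strongest). Bars are exact 95% intervals. Both curves go down with strength, from 69.0% to 1.10% in the day 7 wound list and from 51.4% to 2.43% in the day 0 epidermis list.

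Regions in 1 list alone lay far from gene starts. Within 1 kb of the start of a protein-coding gene lay 11.6% (interval 11.1 to 12.2) of regions in the day 7 wound list alone, 8.29% (interval 7.67 to 8.94) of those in the day 0 epidermis list alone and 37.7% of shared regions. The median distance to the nearest start was 24283 bp, 33505 bp and 9155 bp in the same order. Over 50 kb from any start lay 32.9% of regions in the day 7 wound list alone and 40.2% of those in the day 0 epidermis list alone. On chromosome X the order was the reverse of that over the whole genome, with 144 regions in the day 7 wound list alone and 256 in the day 0 epidermis list alone of 902. The labels used here give no sex for the animals, and its part in this count was not tested. Chromosome 11 had the highest share of regions in the day 7 wound list alone, 34.4% of 2618.

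Presence in the 6 other lists, which were not used to form the classes, separated the classes. Of the 11973 regions in the day 7 wound list alone, 74.8% (interval 74.0 to 75.6) were in the list of the same wound at day 3, 64.0% in the full-thickness day 7 list and 31.8% in the list of unwounded hair follicle stem cells. Of the 7467 regions in the day 0 epidermis list alone, the shares were 12.7%, 21.2% and 19.6%. The day 80 lists showed the opposite order. The day 80 epidermis list held 68.2% (interval 67.2 to 69.3) of regions in the day 0 epidermis list alone and 20.4% (interval 19.7 to 21.2) of those in the day 7 wound list alone. The day 80 list of the partial-thickness wound held 62.1% and 31.3%, and that of the full-thickness wound 55.3% and 31.8%. With a 50% cover the last share was 14.6%. Shared regions were in each of the day 3 and day 80 lists and the full-thickness day 7 list at 89.4% to 92.2%, and in the HFSC list at 72.2%. The strong regions, those in the upper 50% of their own list by −log10 p, showed the same order with wider gaps. They numbered 2343 in the day 7 wound list alone and 1595 in the day 0 epidermis list alone, 5.47% and 3.73% of all regions. Of the former 95.5% were in the list of day 3 and 26.5% in the day 80 epidermis list. Of the latter 10.2% and 93.8% were.

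**Figure D2:**
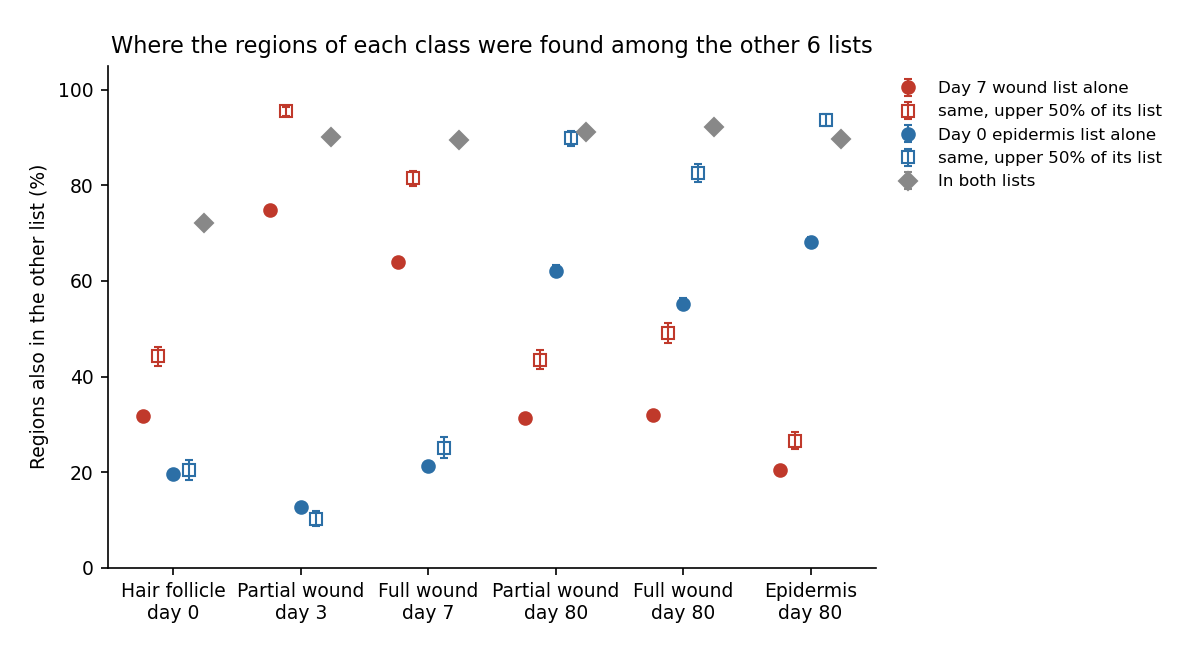
Share of regions of each class (y axis, %) that overlapped a peak of each of the 6 other lists (x axis). Red marks regions in the day 7 wound list alone, blue those in the day 0 epidermis list alone, grey those in both, open squares the regions in the upper 50% of their own list, and bars exact 95% intervals. Red lies above blue in the HFSC, day 3 and full wound day 7 lists, and blue above red in the 3 lists of day 80.

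Single regions had these histories. Of regions in the day 7 wound list alone, 29.7% (3550) were absent from the HFSC list and from every day 80 list but present in the day 3 or the full-thickness day 7 list. A further 25.6% were likewise absent from the HFSC list and present in an early wound list, and were also in a day 80 list. The HFSC list and a day 80 list both held 19.1%, and the HFSC list without a day 80 list 12.7%. None of the other lists held 9.44%. Of regions in the day 0 epidermis list alone, 49.8% (3721) were absent from the HFSC and early wound lists and present at day 80. Both the day 80 epidermis list and the partial-thickness day 80 list held 51.1% of them, and 85.8% of the strong ones. The lowest −log10 p of both lists differs (above), and the part of this in the shares was not tested.

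Each region was then given to its closest protein-coding gene up to 50 kb away, which placed 36410 of them at 13609 genes and left 6399 without a gene. A position near a gene does not show that a region acts on it. Of these genes, 4838 (35.6%) had more regions in the day 7 wound list alone than in the day 0 epidermis list alone, 2420 (17.8%) had more in the day 0 epidermis list alone and 6351 (46.7%) had equal numbers. With lists of equal length the shares were 27.4% and 23.4%. The share of regions in the day 0 epidermis list alone increased with the length of the gene, from 11.5% at genes up to 20000 bp to 25.7% at genes over 300000 bp, while that in the day 7 wound list alone was 26.4% and 29.5%.

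Trp63, Lpp, Rere and Ltbp1 were among the 12 genes with the largest excess in the day 7 wound list. Trp63, which encodes p63, the transcription factor that keeps basal keratinocytes in their state (chromosome 16, 25683762 to 25892088, gene ID 22061), had 11 regions in the day 7 wound list alone, 0 in the day 0 epidermis list alone and 2 shared. The 11 regions had scores from 399 to 844, against 1395 and 1209 for the shared regions in the same list. All 11 were in the list of day 3, 9 in the full-thickness day 7 list, 4 in the HFSC list and 5 in the day 80 epidermis list. With the day 80 epidermis list in place of day 0, the excess at Trp63 was 3. Lpp, a protein of focal adhesions, had 12, 0 and 5 regions in the same order of classes, and the excess was 2 against the day 80 epidermis list. One Lpp region inside the gene (chromosome 16, 24678680 to 24679595) had a score of 1957 and was held by the HFSC, day 3 and both full-thickness lists. Rere, a nuclear corepressor, had 13, 0 and 4, an excess of 6 against day 80. When only the upper 50% of each list was used, the excess was 4 at Trp63, 6 at Lpp and 4 at Rere. Rad51b, a gene of DNA repair, had 15, 2 and 10 but turned to −3 against the day 80 epidermis list.

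Other genes kept their excess against both epidermis lists. Ltbp1, which binds latent TGF-beta in the matrix (chromosome 17, 75005479 to 75392512, gene ID 268977), had 9 regions in the day 7 wound list alone, 0 in the day 0 epidermis list alone and 3 shared, an excess of 9 that was 11 against day 80. Its 9 regions had scores from 509 to 1468. Of these, 8 were also in the full-thickness day 80 list, 1 in that of the partial-thickness wound and 0 in the day 80 epidermis list. Pdzrn3, a ubiquitin ligase, had 10, 1 and 0, and Gpc6, a glypican of the cell surface, 9, 0 and 1. For both, the excess was 9 against day 0 and 10 against day 80, and 4 and 2 in that order with the upper 50% of each list. All 10 Pdzrn3 regions were in the list of day 3 and 7 in the HFSC list, but only 1 in the full-thickness day 7 list. None of the 9 Gpc6 regions was in either full-thickness list. Lgr5, a receptor for R-spondins and a marker of hair follicle stem cells, had 7 in the day 7 wound list alone, 1 in the day 0 epidermis list alone and 0 shared. None of its 7 was in any day 80 list or in the full-thickness day 7 list. Samd5 (12, 2 and 6) and Macrod2 (20, 7 and 32) also led the ranking, as did Septin9, a filament-forming GTPase (10, 0 and 4), Gse1 (10, 1 and 4) and Dip2b (9, 0 and 5). With the upper 50% of each list the excess was 3 at Samd5, Macrod2, Septin9 and Gse1, 2 at Dip2b and 1 at Lgr5.

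Among genes under 50 kb, Krt80, an epithelial keratin, had the largest excess in the day 7 wound list, with 8 regions in that list alone, 0 in the day 0 epidermis list alone and 5 shared. That excess of 8 was 4 with lists of equal length and 3 against the day 80 epidermis list. Il17b, a cytokine of the interleukin 17 family, had 6, 0 and 0, and the excess was 2 against day 80. Inf2, a formin, had 6, 0 and 2, Eri1, an exonuclease, 6, 0 and 1, and Upb1 5, 0 and 0. With the upper 50% of each list the excess was 4 at Krt80, 2 at Il17b and Inf2, 1 at Upb1 and 0 at Eri1.

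In the other direction Dlg2, Cobl, Dab1, Slit3, Trpm3, Pde4d, Pkib and Prlr led, in that order. Dlg2, a scaffold of synapses, had 2 regions in the day 7 wound list alone, 17 in the day 0 epidermis list alone and 10 shared, with scores of the 17 from 112 to 817. Of the 17, 15 were in the day 80 epidermis list and 0 in the day 3 or full-thickness day 7 lists. Cobl, an actin nucleator (chromosome 11, 12236675 to 12465022, gene ID 12808), had 0, 12 and 5. Of both lists only that of the day 0 epidermis had a peak at the Cobl start. The day 80 epidermis list and both full-thickness lists held that start too. Prlr, the prolactin receptor, had 0, 8 and 4 regions. The 8 Prlr regions had scores from 135 to 513, and 7 were in the day 80 epidermis list, 6 in each day 80 wound list, 4 in the HFSC list and 0 in the day 3 or full-thickness day 7 lists. Its excess of 8 in the epidermis was 8 under equal lengths, with the upper 50% of each list and against day 80 as well. Of both lists only that of the day 7 wound overlapped the annotated Prlr start window (score 693), inside a region that both lists held. The HFSC, day 3, partial-thickness day 80 and day 80 epidermis lists overlapped that window too. Pkib had 0, 8 and 1, with all 8 in the partial-thickness day 80 list, 7 in the day 80 epidermis list and 0 in the HFSC or day 3 lists. The start of Pkib (chromosome 10, 57631769 to 57632584) was the strongest of these, at a score of 879. Pde4d, which degrades cAMP, had 8, 17 and 17, an excess in the epidermis of 9 that was 5 against day 80. With the upper 50% of each list the excess in the epidermis was 8 at Dlg2, 5 at Dab1 and Trpm3 and 4 at Slit3 and Pkib.

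Dab1, an adaptor of reelin signalling, had 0, 10 and 4 regions, and Slit3, a secreted ligand of Robo receptors, had 2, 12 and 7. Trpm3, a cation channel, had 1, 10 and 5, Syt1, a calcium sensor of vesicles, 3, 11 and 6, Col19a1, a collagen, 0, 7 and 1, Kctd16 0, 7 and 1 and Samsn1 0, 7 and 1. Of the 10 Trpm3 regions in the day 0 epidermis list alone, 0 were in the day 3 or full-thickness day 7 lists and 7 were in the day 80 epidermis list. Among genes under 50 kb, Tlr3, a receptor for double-stranded RNA, had 0, 5 and 3, an excess of 5 that was 2 against day 80. Ogfrl1 had 0, 5 and 1, Hs3st1, a heparan sulfate enzyme, 0, 5 and 2, Btbd3 0, 5 and 7, Acsm1, an acyl-CoA synthetase, 0, 4 and 0, and Alkal2, a ligand of the ALK receptor, 0, 4 and 0. Against day 80 the excess in the epidermis was 2 at Ogfrl1 and 1 at Btbd3. With the upper 50% of each list it was 0 at Tlr3 and Ogfrl1 and 1 at Hs3st1 and Alkal2.

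**Figure D3:**
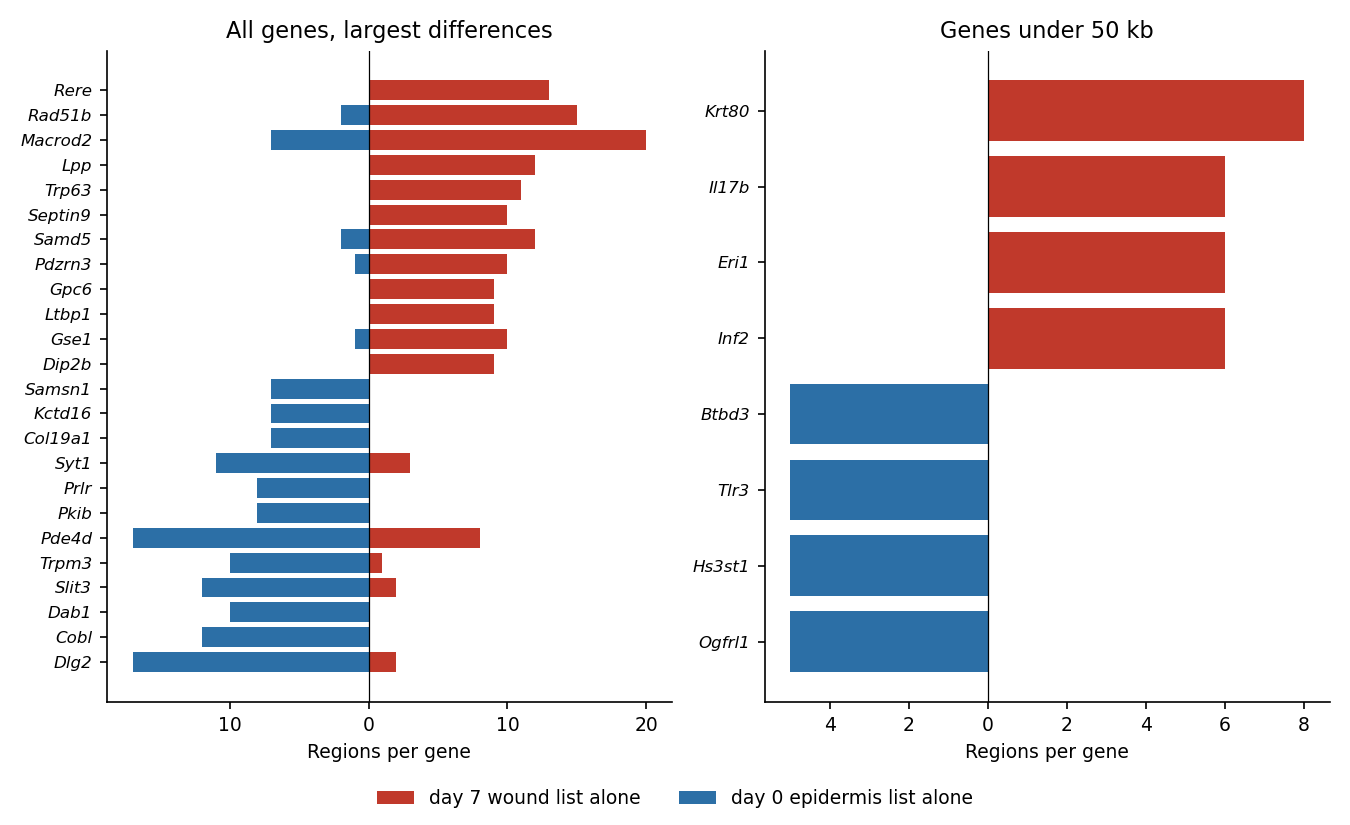
Number of regions per gene (x axis) in the day 7 wound list alone (red, to the right) and in the day 0 epidermis list alone (blue, to the left), for the 12 genes with the largest difference each way (left) and the 4 leading genes under 50 kb each way (right). Rere, Lpp and Trp63 have red bars only, and Cobl, Dab1, Pkib and Prlr blue bars only.

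Both classes formed runs of neighbouring regions with no region of another class between them. Runs of 5 or more numbered 181 in the day 7 wound list alone (1090 regions), 94 in the day 0 epidermis list alone (590 regions) and 1073 among shared regions. The longest run of the day 7 wound list, 13 regions over 327 kb on chromosome 15 (101426229 to 101752808), crossed the type II keratin genes from Krt7 to Krt71. It included the starts of Krt5 and of Krt6a, a keratin of wounded epidermis. Of its 13 regions, 12 were in the list of day 3, 12 in the full-thickness day 7 list, 5 in the HFSC list and 4 in the day 80 epidermis list. The Krt5 start, with a score of 624 in the day 7 wound list, was among those 4, so the list of unwounded epidermis at day 0 lacked it and that of day 80 held it. Over all keratin genes, a group chosen after values had been seen, 34 of 53 had a region, with 33 of 65 regions (50.8%) in the day 7 wound list alone, 5 (7.69%) in the day 0 epidermis list alone and 27 shared. Over all regions with a gene these shares were 27.3% and 16.2%. A run of 12 regions followed Pdzrn3 on chromosome 6.

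In the day 0 epidermis list the longest runs had 12 regions. One crossed the Skint genes on chromosome 4 (112774272 to 114299171), which encode butyrophilin-like proteins, known from Skint1 as needed by the gamma delta T cells of mouse epidermis. Of its 12 regions, 0 were in the list of day 3, 3 in the full-thickness day 7 list, 8 in the day 80 epidermis list, 8 and 9 in the day 80 lists of the partial-thickness and full-thickness wounds and 1 in the HFSC list. Over all 11 Skint genes, also chosen after values had been seen, 13 of 29 regions (44.8%) were in the day 0 epidermis list alone, 6 (20.7%) in the day 7 wound list alone and 10 were shared, beside 16.2% and 27.3% over all regions with a gene. Another run, of 10 regions on chromosome 7 (119483992 to 119685669), crossed Pdilt and the acyl-CoA synthetase genes Acsm2, Acsm1 and Acsm4. None of its regions was in the HFSC, day 3 or full-thickness day 7 lists, and 5 were in the day 80 epidermis list.

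**Figure D4:**
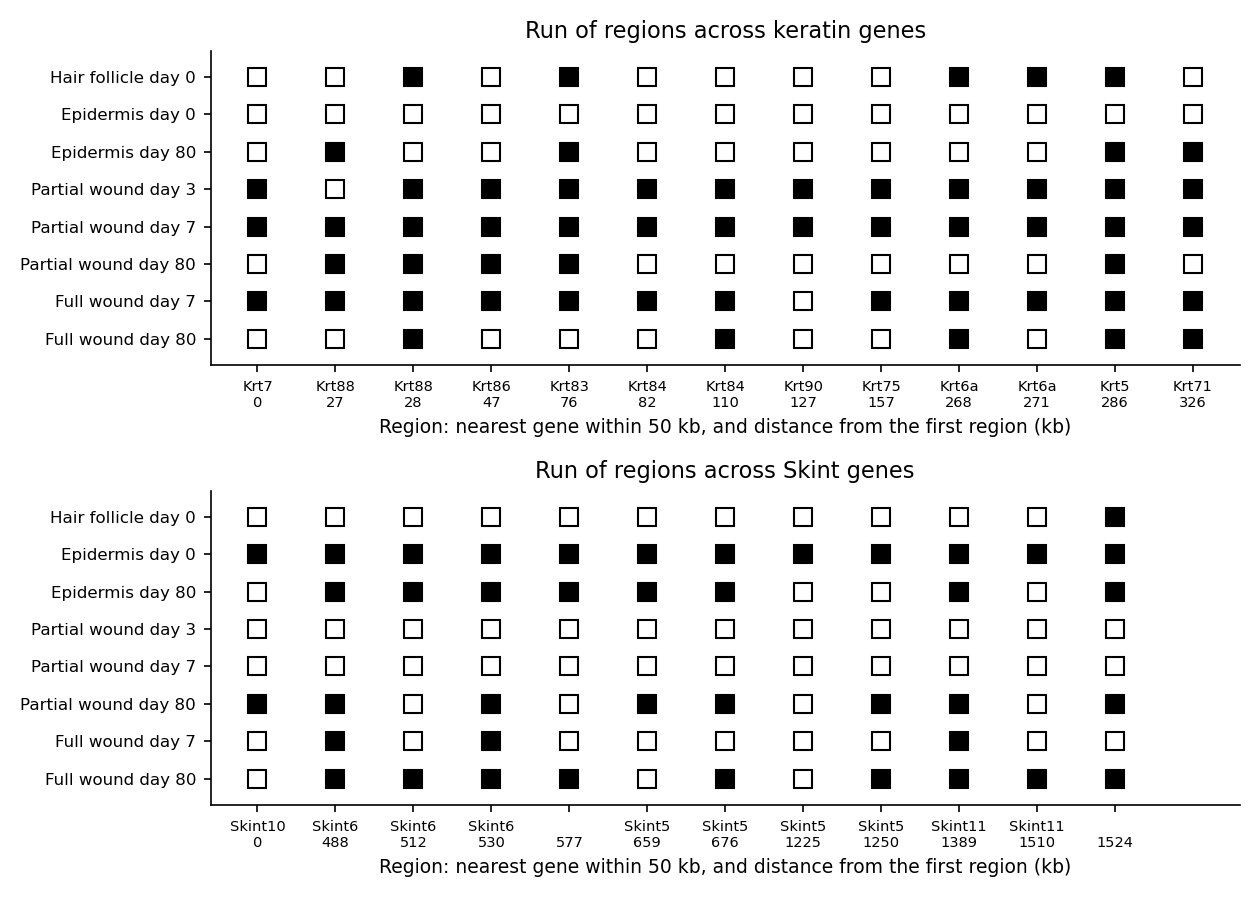
Presence (filled) or absence (open) in all 8 lists (rows) of the 13 regions of the keratin run (upper panel) and the 12 regions of the Skint run (lower panel), in order along the chromosome, with the nearest gene within 50 kb and the distance from the first region in kb. The keratin run is filled in 12 of 13 columns in the day 3 and full-thickness day 7 rows, and the Skint run is open throughout in the day 3 and day 7 partial-thickness rows.

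Gene lists of skin cell types and pathways were read against the share over all assigned regions, 27.3% in the day 7 wound list alone and 16.2% in the day 0 epidermis list alone, and against a median difference per gene of 0. Of all genes with a region, 35.6% were in excess in the wound and 17.8% in the epidermis, with a median of 2 regions per gene. Basal keratinocyte genes had 40 of 94 regions (42.6%, interval 32.4 to 53.2) in the day 7 wound list alone and 9 (9.57%) in the day 0 epidermis list alone, with 11 of 15 genes in excess in the wound and 1 in the epidermis. Trp63 gave 11 of the 40. Lama3, a chain of laminin 332, had 5, 0 and 5 regions, and Bcl11b, a transcription factor, 4, 0 and 2. The median difference per gene was 1. With the day 80 epidermis list in place of day 0, the shares were 32.7% and 15.8%. Epidermal stem cell genes had 31 of 100 regions in the day 7 wound list alone and 8 in the day 0 epidermis list alone. The latter share was 14.1% with lists of equal length, and the shares were 27% and 20% against the day 80 epidermis list. Hes1, a Notch target, had 5, 0 and 4 regions, but the excess of 5 was 2 with lists of equal length. Prdm1, a repressor active in differentiation, had 5, 0 and 4, an excess that turned to −1 with the upper 50% of each list. Ovol1, an epithelial factor, had 3, 0 and 1. Grhl2, a factor of epithelial junctions, had 6, 2 and 4, and Gata3, a factor of epidermal differentiation, 0, 2 and 5. Klf5 had 1, 0 and 2, and in the basal list Krt14 had 1, 1 and 1.

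Wound epithelium genes had 40 of 107 regions (37.4%, interval 28.2 to 47.3) in the day 7 wound list alone and 17 (15.9%) in the day 0 epidermis list alone, with 14 of 27 genes in excess in the wound and 6 in the epidermis. Of all genes with a region, 35.6% and 17.8% were. Of the 40 regions, 34 were in the list of day 3, 30 in the full-thickness day 7 list, 14 in the HFSC list, 6 in the day 80 epidermis list and 5 in the partial-thickness day 80 list. Of all 11973 regions in the day 7 wound list alone, these lists held 74.8%, 64.0%, 31.8%, 20.4% and 31.3% in the same order. The share of wound epithelium regions in the day 7 wound list alone was 37.4% against the day 80 epidermis list too. Cd44, a hyaluronan receptor, had 7 regions in the day 7 wound list alone, 2 in the day 0 epidermis list alone and 5 shared. The excess of 5 at Cd44 was 2 with lists of equal length and 1 against day 80. Plaur had 3, 0 and 0, Krt6a 2, 0 and 0 and Mmp13, a collagenase, 2, 0 and 0. Tgfa, a ligand of the EGF receptor, had 4, 0 and 4. Of the regions in the day 7 wound list alone, the HFSC list held all 3 at Plaur and all 2 at Krt6a. At Cd44 it held 6 of 7, and at Mmp13 and Tgfa 0. With the upper 50% of each list the excess was 0 at Plaur and Krt6a, 2 at Tgfa and 6 at Cd44. Itga5, an integrin subunit for fibronectin, had 3, 0 and 1, an excess that turned to −1 with the upper 50% of each list. Krt17, a keratin of wounds and follicles, had 0, 0 and 1. S100a8 and S100a9, which encode the subunits of calprotectin, had 2, 0 and 0 and 1, 0 and 0. The 6 genes in excess in the epidermis were Flrt2, Itgav, Mmp10, Ereg, Tnc and Fn1. Flrt2 had 0, 2 and 4 regions, Itgav 1, 2 and 4 and Mmp10 0, 1 and 2. Ereg had 2, 3 and 2, Tnc 2, 3 and 5 and Fn1 0, 1 and 0.

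The genes that mark hair follicle stem cells had 46 of 143 regions (32.2%, interval 24.6 to 40.5) in the day 7 wound list alone and 29 (20.3%) in the day 0 epidermis list alone. Sox9, a factor of follicle stem cells, had 3, 0 and 2 regions, Cd34, a surface protein of the bulge, 2, 0 and 2, and Runx1 5, 3 and 2. Lhx2, another follicle factor, had 3, 1 and 2, and Krt15, a bulge keratin, 0, 0 and 1. Nfatc1, which keeps bulge cells at rest, had 5, 4 and 4, and Nfib 2, 3 and 9. Of the 46 regions in the day 7 wound list alone, 24 were in the HFSC list, 29 in the list of day 3 and 6 in the day 80 epidermis list. For all regions of that class the shares were 31.8%, 74.8% and 20.4%. AP-1 and stress genes had 28 of 107 regions (26.2%) in the day 7 wound list alone, near the share over all regions. The genes of the AP-1 factors Fosl1 and Jund had shared regions only, Jun had 1, 0 and 3, Fosl2 1, 0 and 4, Fos 0, 2 and 7 and Stat3 3, 2 and 1. The difference at Fos, −2, turned to 2 with the upper 50% of each list and against day 80, and that at Jun, 1, turned to −1 against day 80. Fosb had 6, 1 and 1, an excess that turned to −1 when only the upper 50% of each list was used. Inflammation genes had 37 of 150 (24.7%) in the day 7 wound list alone, with Il1r2, a decoy receptor for interleukin 1, at 4, 0 and 5. Interferon genes had 4, 4 and 8.

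In the Wnt and hedgehog list 33.1% of 136 regions were in the day 7 wound list alone and 16.9% in the day 0 epidermis list alone, the latter 25.4% with the upper 50% of each list. Gli2, a hedgehog effector, had 8, 0 and 8 regions, an excess of 8 that was 4 against day 80. In the Notch list 32.1% of 53 regions were in the day 7 wound list alone, and Notch3, a receptor, had 4, 0 and 1. BMP and TGF-beta genes had 45 of 158 regions (28.5%) in the day 7 wound list alone and 25 (15.8%) in the day 0 epidermis list alone, and members of the list lay on both sides. The ligand genes Bmp4 and Tgfb2 had 0, 4 and 2 and 0, 4 and 3 regions, and the receptor gene Tgfbr2 had 0, 3 and 7. None of the 4 Bmp4 and 4 Tgfb2 regions was in the HFSC, day 3 or full-thickness day 7 lists, and all were in the partial-thickness day 80 list. On the other side were Ltbp1 and Smad6, an inhibitor of BMP signalling, at 4, 1 and 0. In the Hippo list 22.5% of 80 regions were in the day 7 wound list alone, 42.9% with the upper 50% of each list, and 9 of its 18 such regions lay at Tead1, a partner of YAP, which had 9, 0 and 5. EGF receptor family genes had 27.4% and 19.0% of 84 regions.

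Axon guidance genes had a higher share in the day 0 epidermis list alone than in the day 7 wound list alone, 51 of 173 (29.5%, interval 22.8 to 36.9) against 44 (25.4%). Against the day 80 epidermis list the shares were 27.1% and 29.5%, so the order of the 2 shares depended on the epidermis list. Of the 51, Robo1, a Slit receptor, gave 12, Slit3 12 and Dab1 10, while Sema3c had 4, 0 and 6 and Epha4 4, 1 and 5. Robo1, Slit3 and Dab1 are each over 300000 bp long. At all genes over that length 25.7% of regions were in the day 0 epidermis list alone and 29.5% in the day 7 wound list alone. The part of gene length in the share of axon guidance genes was not tested. The receptor gene Robo1 had 7, 12 and 5 regions. One inside Robo1 (chromosome 16, 72914056 to 72914764) had a score of 2084 and was the sixth strongest in the day 7 wound list alone. Sebaceous gland and isthmus genes had 11 of 33 regions (33.3%) in the day 0 epidermis list alone and 6 (18.2%) in the day 7 wound list alone, with Plet1, a marker of the isthmus, at 0, 3 and 4 and Elovl6, a fatty acid elongase, at 0, 3 and 7. Against the day 80 epidermis list these shares were 23.3% and 20%, and with the upper 50% of each list both were 21.4%. Chromatin regulators had 30.8% and 13.8% of 65 regions, with the first at 47.7% for a 50% cover, and Arid1a, a subunit of the BAF remodelling complex, 5, 0 and 0. Proliferation genes had 21.6% and 7.84% of 51 regions and housekeeping genes 15.4% and 7.69% of 26. With a 50% cover the first share of housekeeping genes was 30.8%, and against day 80 the shares were 7.14% and 14.3%, the reverse order. Terminal differentiation genes had 23.1% and 11.5% of 52, but the order turned with the upper 50% of each list, at 21.4% and 39.3%, with lists of equal length, at 13.0% and 19.6%, and against the day 80 epidermis list, at 24.6% and 26.2%.

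**Figure D5:**
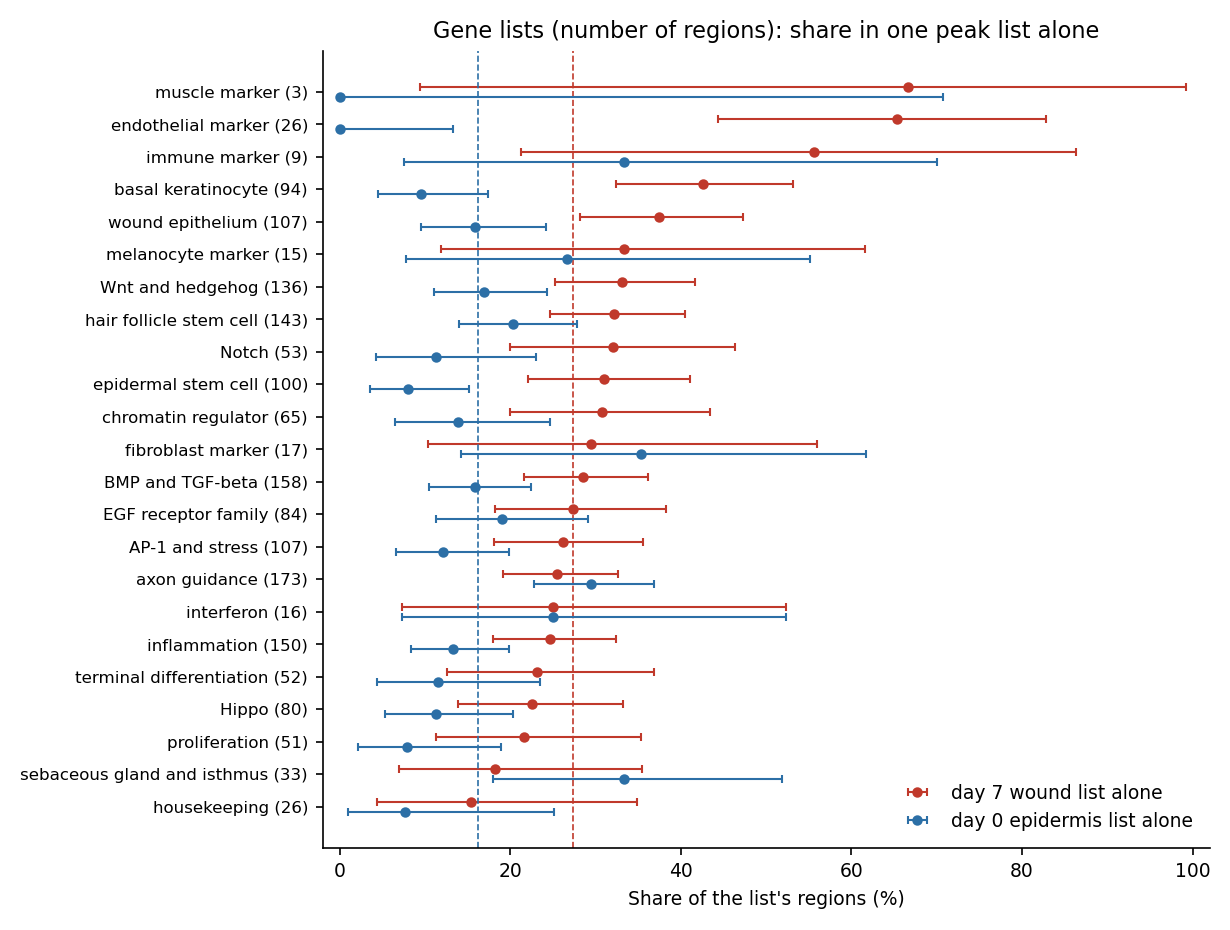
Share of the regions of each gene list (x axis, %) that were in the day 7 wound list alone (red) and in the day 0 epidermis list alone (blue), with exact 95% intervals. The number of regions stands in brackets, and dashed lines give the shares over all assigned regions, 27.3% and 16.2%. Basal keratinocyte, wound epithelium and endothelial genes have red intervals wholly above the red line.

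Genes that mark other cells of skin were read the same way. Of 9 endothelial marker genes 6 had regions, with 17 of 26 in the day 7 wound list alone, 0 in the day 0 epidermis list alone and 9 shared. Vwf had 5, 0 and 1, Pecam1 5, 0 and 3, Tek 4, 0 and 1, Erg 2, 0 and 2 and Tie1 1, 0 and 1. Cdh5, a defining endothelial gene, had 1 shared region, and Kdr, Emcn and Sox17 had none in either list. Of the 17 regions 8 were in the list of day 3, 8 in the full-thickness day 7 list, 5 in the HFSC list and 2 in the day 80 epidermis list. For all regions in the day 7 wound list alone the shares were 74.8%, 64.0%, 31.8% and 20.4%. Of 14 immune marker genes 6 had regions, 5 in the day 7 wound list alone, 3 in the day 0 epidermis list alone and 1 shared. Ptprc, the pan-leukocyte marker CD45, had 2, 1 and 0, Itgam 1, 1 and 0, Cd3e and H2-Aa 1, 0 and 0 each and Cpa3 0, 1 and 0. Of both lists only that of the day 7 wound held the start of H2-Aa, and Cd74, Csf1r, Cd207, Lyz2, Cd3g, Itgax and Mcpt4 had no region. Of 12 fibroblast genes 7 had regions (5, 6 and 6). Dpp4 had 2, 2 and 5, Pdgfra and Fbn1 1, 1 and 0 each, Dlk1 1, 0 and 0, Dcn and Vim 0, 1 and 0 each and Col1a1 0, 0 and 1, while Col1a2, Col3a1, Pdgfrb, Lum and Twist2 had none. Melanocyte genes had 5, 4 and 6 regions and muscle genes 2, 0 and 1. The part of other cell types in the results was not tested.

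At annotated starts the day 7 wound list, the longer of both lists, had the larger class. Start windows were not counted with lists of equal length. At equal length, 11.8% of the 8959 regions in the day 7 wound list alone lay within 1 kb of a start. Of the 8882 in the day 0 epidermis list alone, 9.74% did. Of 21237 start windows, from 250 bases before to 50 after a start, 1276 were overlapped by the day 7 wound list only, 426 by the day 0 epidermis list only and 8600 by both. The windows of the day 7 wound list only were in the list of day 3 in 89.7% and in the HFSC list in 60.5%, and 44.3% of them were in the day 80 epidermis list. Of the windows of the day 0 epidermis list only, 63.4% were in the day 80 epidermis list and 34.0% in the list of day 3. Beside the sequences shown above, the day 7 wound list held the start of Ier3, an early response gene, at a score of 1425. It also held starts of Il18, Tgfb1, Notch1, Jag2, Itga5, S100a8 and Ctnnb1. The day 0 epidermis list held none of these windows. The Ier3 start was in all 6 other lists. The day 80 epidermis list held the starts of Il18, Itga5 and Ctnnb1 too, but not those of Tgfb1, Notch1, Jag2 and S100a8. A window held by 1 list can lie in a region that both lists held, as at Il18 and Tgfb1. The day 0 epidermis list, and not that of the day 7 wound, held starts of Cobl, Slit3, Col19a1, Il33 and Kcnt2. The day 80 epidermis list held all of these too. TGANTCA was in 7.76% (interval 6.35 to 9.37) of windows of the day 7 wound list only, 6.81% (interval 4.61 to 9.63) of those of the day 0 epidermis list only, 4.69% of those of both, 8.72% of those of neither and 6.99% of all. AGATAA was in 6.90% and 8.22% of the windows held by 1 list and in 9.65% of all. The other motifs searched, given as the share in windows of the day 7 wound list only, the day 0 epidermis list only and all windows, were TGACTCA (the strict AP-1 core, counted in TGANTCA too) at 6.19%, 5.4% and 4.66%, TTGCNNAA (C/EBP) at 8.54%, 7.51% and 10.2%, ACAAAG (SOX) at 15.3%, 11.5% and 16.8%, TGTGGT (RUNX) at 12.6%, 11.5% and 15.0%, GGAATG (TEAD) at 13.2%, 15.0% and 13.6% and TTGGCA (NFI) at 11.3%, 11.7% and 13.1%. All motifs were read on both strands. Some genes gave more than 1 window, as Smad5 did, and such windows can overlap. The intervals take each window as separate, so they may be too narrow. For TGANTCA and AGATAA the intervals of the day 7 wound and day 0 epidermal windows overlapped. Median GC content was 61% and 59.7% in those 2 classes, 62% in windows of both lists and 50% in windows of neither.

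Of the 12 strongest regions of each class, 3 in the day 7 wound list alone and 2 in the day 0 epidermis list alone lay inside a protein-coding gene. The highest score in the day 7 wound list alone was 2404, at a region on chromosome 16 (85649192 to 85650045) with no protein-coding gene within 50 kb. That region was in the list of day 3 and the full-thickness day 7 list, and in none of the other 4 lists. The next was on chromosome 6 (147397815 to 147398587, score 2276) and was also in the HFSC list. Another stood 3967 bp from Il20, a cytokine of keratinocytes (chromosome 1, 130902310 to 130903018, score 2036), and was in both early wound lists and both day 80 wound lists but in neither epidermis list. The highest score in the day 0 epidermis list alone was 1935, at a region 18421 bp from Kcnt2, a potassium channel gene (chromosome 1, 140226603 to 140227236). It was in all 3 lists of day 80 and in no early wound or HFSC list. Calcrl, a receptor component for CGRP and adrenomedullin, held another inside the gene (chromosome 2, 84392998 to 84393821), with a score of 1312 and the same pattern. The 12 strongest regions of the day 7 wound list alone were all in the list of day 3, and 11 of them were absent from the day 80 epidermis list. The 12 strongest of the day 0 epidermis list alone were all in the day 80 epidermis list and none was in the list of day 3.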

How the data were processed

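ATAC-seq peak lists were deposited, 1 per group, and those of 2 groups were compared. Per the submitters' processing notes, the build was mm10 and the tools were bedtools 2.29.2, MACS2 2.1.1.20160309, Picard and Bowtie, with no roles given. The sources used here do not say whether peaks were called on pooled or single samples. The score, fold enrichment and −log10 p deposited for a peak are the authors' own and were used only within their list. The score is 10 times the −log10 q. Read depth is unknown, so precision between samples cannot be given.

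Peaks of both lists were merged and classed by 1 bp overlap. Genes were the 21896 protein-coding genes of RefSeq GRCm38.p6, the nearest within 50 kb being taken. Starts were known for 17491 genes, and either gene end stood for the start of the others. Exons, introns and UTRs were not analysed here. No test was made, because each group has 1 list. Shares carry exact Clopper-Pearson 95% intervals. The 23 gene lists held 419 genes, of which 2 (Mx1 and Trdc) were absent from the gene table. The members and lists were chosen with earlier results of these data known.

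Genes named were the 12 with the largest difference each way between the numbers of regions in 1 list alone, the 6 such genes under 50 kb each way, the genes of the strongest regions, at most 5 members per gene list, by absolute difference, and 23 fixed genes. One of the genes under 50 kb and one of the immune marker genes are not reported here. Other list members, and genes of start windows and runs, were added after their values were seen. Alternatives were a 50% cover of the region, the upper 50% of each list, lists of equal length, 500 bp around summits, gene windows of 10 and 100 kb, a start distance of 5 kb, the day 80 epidermis list in place of day 0 and autosomes only. The scripts were tested on simulated data, where 3000 of 3000 regions had the right class and 0 the wrong gene. Python 3.11.15, numpy 2.4.6, pandas 2.3.3, scipy 1.17.1 and matplotlib 3.10.9 were used.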

Additional observations from a re-analysis of the deposited data

How the results depend on the processing

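Each group has 1 list, so leaving out a replicate could not be run. No paired analysis was possible because each group has 1 deposited list. The day 80 epidermis list in place of day 0, autosomes only and the gene list shares under other settings were chosen after seeing the data. Of the results on classes, 59 values moved and 52 did not. A share moved when it left its counting interval, and a count when it left a range of 1.5 times its value, so that the counts of 8959 (W) with equal length and 13789 (W) with 50% cover are among the 52. Values are given in the order day 7 wound alone (W), day 0 epidermal alone (E) and shared (S). A start distance of 5 kb gave 19.9%, 16.7% and 43.7% near a start. Counting only regions in the upper 50% of their own list gave 2343 (W) and 1595 (E). A 50% cover gave 14.3% (W) and 38.4% (S) near a start. It put W in the HFSC list at 33.2%, day 3 at 76.3%, day 80 partial wound at 35.0%, full wound day 7 at 66.1% and day 80 at 14.6%, and day 80 epidermis at 15.3%. It put E in the full wound day 80 list at 39.0% and day 80 epidermis at 62.2%. The upper 50% of each list gave 6527, 4298 and 11177 regions, with 26.2%, 15.9% and 49.6% near a start. W was then in the day 3 list at 73.6%, day 80 partial at 37.8%, full wound day 7 at 65.0% and day 80 at 35.8%, and day 80 epidermis at 24.7%. E was in day 80 partial at 50.6%, full wound day 7 at 18.6% and day 80 at 51.9%, and day 80 epidermis at 63.6%. Lists of equal length gave 8959 (W) and 8882 (E), with 9.74% (E) and 39.0% (S) near a start. W was then in the HFSC list at 34.9%, day 3 at 72.0%, full wound day 7 at 59.2% and day 80 at 30.6%. E was in them at 22.6%, 11.6%, 17.2% and 52.1%, in day 80 partial at 59.0% and in day 80 epidermis at 66.1%. Peaks of 500 bp around summits gave 12.5%, 10.6% and 36.9% near a start, W in the HFSC list at 30.1%, day 3 at 73.0%, day 80 partial at 29.2% and full wound day 7 at 62.2%, and E in day 80 partial at 57.5% and day 80 epidermis at 65.3%. The day 80 epidermis list in place of day 0 gave 8.81% (W) and 39.1% (S) near a start, W in the HFSC list at 28.5% and day 80 partial at 28.9%, and epidermis alone in day 3 at 10.7%, day 80 partial at 58.8%, full wound day 7 at 19.9% and day 80 at 49.5%. The cause was not tested. Among the smaller gene lists, the upper 50% left interferon, proliferation and immune genes with 0% of E. It gave Notch genes 17.9% of E, endothelial genes 10% of E and melanocyte genes 12.5% and housekeeping genes 27.8% of W. Equal length gave sebaceous gland genes 10% and fibroblast genes 14.3% of W and Hippo genes 18.2% of E. Day 80 epidermis gave interferon genes 11.8%, immune genes 30% and muscle genes 0% of W, and proliferation genes 13.0%, Notch genes 17.5% and endothelial genes 7.14% of E.

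Of 150 named genes, the difference W minus E kept its direction in 124 with a 10 kb window, 148 with 100 kb, 146 with 50% cover, 95 with the upper 50%, 136 with equal length, 150 with summits, 123 with day 80 epidermis and 150 with autosomes only. It reversed with 10 kb at Errfi1 (−2) and Nfatc1 (−1). With the upper 50% it reversed to −1 at Abca12, Dsg1a, Dst, Egfr, Fosb, Itga5, Itgb6, Ivl and Prdm1, to −2 at Casp14, Maml2 and Robo2, to 2 at Amotl2 and Fos and to 1 at Lrig3. With equal length it reversed at Abca12 (−1) and Egfr (−2). With day 80 epidermis it reversed to −1 at Cdsn, Col17a1, Itgb6, Jun, Krt5 and Ywhaz, to −2 at Maml2, to −3 at Rad51b, to 1 at Lrig3 and Mgst1 and to 2 at Fos. Depth is unknown, so how far a region missing from a list lay below its threshold cannot be told.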

Other observations

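The Hox genes, a family chosen after values had been seen, encode homeodomain factors that mark position along the body. Of 39 Hox genes 19 had a region, with 17 of 26 regions (65.4%) in the day 7 wound list alone, 0 in the day 0 epidermis list alone and 9 shared, beside 27.3% and 16.2% of all regions with a gene. Of the 17, 15 were in the list of day 3, 11 in the full-thickness day 7 list, 9 in the HFSC list and 5 in the day 80 epidermis list. For all regions in the day 7 wound list alone the shares were 74.8%, 64.0%, 31.8% and 20.4%. Scores of the 17 ran from 391 to 1241. The body site of the skin was not among the labels used.

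In the day 7 wound list alone, gene starts and distant regions had unlike histories. Of 1392 regions in the day 7 wound list alone within 1 kb of a start, 46.4% were in the day 80 epidermis list and 56.2% in the HFSC list, against 17.0% and 28.6% of the 10581 others. For the day 0 epidermis list alone, the day 80 epidermis list held 64.5% of 619 regions near a start and 68.6% of 6848 others. The HFSC list held 38.9% and 17.8% of them.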
